A study of Arabidopsis thaliana with 4 samples.

Results

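Close pairs of nucleosome calls on the chromosome arms of Arabidopsis thaliana are described here: neighbouring calls of the same library whose positions lay under 147 bp apart, less than the DNA wrapped in a single nucleosome. The pairs were chosen by the measured positions alone, in each library separately, at more than 2.5 Mb from 15, 3.6, 14, 4 and 12 Mb on chromosomes 1 to 5. This gave 14824 pairs among 1019932 distances between neighbouring arm calls, in 4 lists that hold 1253289 calls in all. Ler replicates 1 and 2 held 2911 and 2492 pairs, and top1a-2 replicates 1 and 2 held 5557 and 3864. The lists come from micrococcal nuclease sequencing of inflorescences with unopened buds. All 4 libraries are labelled with the ecotype Landsberg erecta (Ler). Of these, 2 are unmutated Ler, and 2 are from top1a-2 plants, which carry a mutant allele of TOP1α and whose samples are titled with the name of the gene. The labels give no plant age and do not say whether replicates were separate pools of plants, so p-values here reflect the spread among these 4 samples alone, and that spread may be technical. The lists hold no expression values, so the tissue could not be checked against marker genes.

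A nucleosome is a histone octamer with DNA wound around it, and micrococcal nuclease cuts the linker DNA between such particles. In a single cell, neighbouring nucleosomes usually leave linker between them, and their centres then lie further apart than the length of the wrapped DNA. A library averages over many cells, so both calls of a close pair need not be occupied in the same cell. TOP1α is a DNA topoisomerase I, an enzyme that nicks DNA strands to release the supercoils that transcription and replication build up, and supercoiling affects how readily DNA wraps into nucleosomes. Each call in the lists has a position, a fuzziness (the spread of that position), a size, a confidence score and votes from the forward and reverse strands.

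The name overlapping held for only a part of the pairs once their called sizes were considered. If the deposited position is the centre of a call, the sizes of both members overlapped in 53.1% and 59.0% of the pairs of Ler replicates 1 and 2 and in 62.2% and 60.7% of those of top1a-2 replicates 1 and 2. If it is the start of a call, the shares were 49.1%, 57.2%, 57.0% and 57.3% in the same order. The sources used here do not say which reading applies. Under the centre reading the pairs that overlapped shared a median of 13.9 to 15.02 bp across the libraries. The called sizes of the remaining pairs did not overlap, so all of them are called close pairs below.

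Close pairs were rare on the arms of every library, and both top1a-2 libraries held more of them than both Ler libraries. They made up 1.13% and 1.08% of the distances between neighbouring arm calls in Ler replicates 1 and 2, and 2.02% and 1.503% in top1a-2 replicates 1 and 2. Ler averaged 1.11% ± 0.0395 and top1a-2 1.76% ± 0.364 (SD over 2 libraries), a ratio of 1.59. Per Mb of arm, Ler held 29.3 ± 3.21 pairs and top1a-2 51.1 ± 13.0 (SD over 2 libraries), a ratio of 1.74. These values are a description with no test, because the same distance chose the pairs. The Ler libraries lay close together, whereas the top1a-2 libraries differed from each other by more than the lower of them differed from Ler. Without top1a-2 replicate 1 the ratio of the shares was 1.36. The ratio also depended on which calls were kept: it was 3.24 without calls under the lower score quartile of their list and 0.878 when each library was reduced to its 230949 highest-scoring arm calls. That number is the whole arm list of Ler replicate 2, which then held 1.08% against 0.352% in Ler replicate 1 and 0.641% and 0.615% in top1a-2 replicates 1 and 2.

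**Figure D1:**
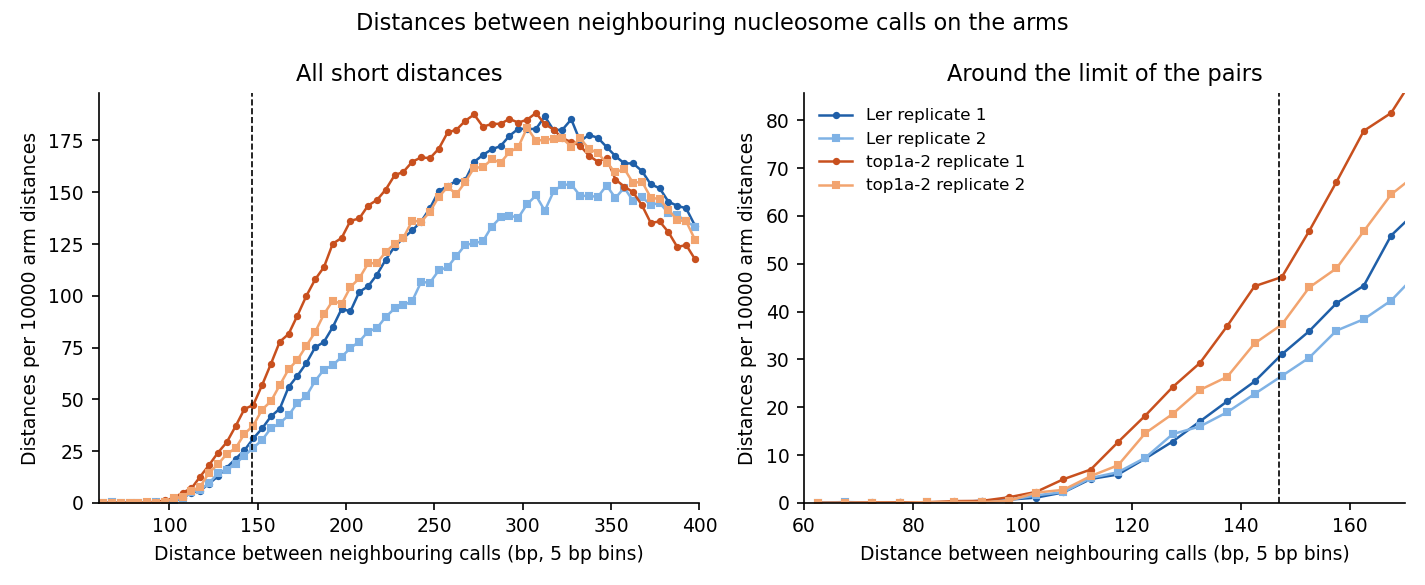
Frequency of distances between neighbouring arm calls per 10000 distances, in bins of 5 bp, for the 4 libraries (left, 60 to 400 bp; right, 60 to 170 bp). The dashed line is the limit of 147 bp, across which the curves rise smoothly in every library.

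The distances did not form a separate class below a nucleosome length. Their frequency rose smoothly through the limit and was highest in the 5 bp bin from 310 bp in Ler replicate 1, 325 bp in Ler replicate 2, 305 bp in top1a-2 replicate 1 and 300 bp in top1a-2 replicate 2. The last 10 bp inside the limit held 1279, 1010, 2396 and 1663 distances in Ler replicates 1 and 2 and top1a-2 replicates 1 and 2, and the first 10 bp outside it held 1831, 1409, 3072 and 2214. Calls just inside had a mean fuzziness of 26.1, 26.6, 25.4 and 26.1 bp in that order, and calls just outside had 27.3, 27.8, 26.5 and 26.9 bp. The limit thus cut a continuous distribution, with fuzziness slightly lower inside it in every library.

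Most pairs were only slightly closer than a nucleosome length, and the mix of distances was similar in all libraries. The median distance within a pair was 135 bp in Ler replicate 1 and 134 bp in each of the other 3 libraries. Distances of 140 bp up to the limit made up 33.0% and 30.1% of the pairs of Ler replicates 1 and 2 and 31.6% and 31.8% of those of top1a-2 replicates 1 and 2. Distances from 100 to under 120 bp made up 12.5%, 14.3%, 13.3% and 12.2% in the same order. Pairs under 100 bp numbered 37 and 28 in the Ler replicates and 63 and 26 in the top1a-2 replicates, and the closest pair of any library was 46 bp apart, in top1a-2 replicate 2. In relation to all arm distances, each class from 100 bp to the limit was more frequent in each top1a-2 library than in either Ler library. From 130 to under 140 bp the frequencies were 66.3 and 50.0 per 10000 distances in top1a-2 against 38.3 and 34.9 in Ler.

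The closest pairs were made of short calls. Under 100 bp apart, the mean size of both members had a median of 76.3 and 83.5 bp in the Ler replicates and 109 and 84.6 bp in the top1a-2 replicates. From 130 to under 140 bp apart it was 137 and 138 bp in the Ler replicates and 139.7 and 139.6 bp in the top1a-2 replicates. A member shorter than 100 bp was present in 21.5% and 15.7% of the Ler pairs and in 14.5% and 13.7% of the top1a-2 pairs. Ler replicate 1 was the highest of the 4 in this share, and it was also the library with the smallest share of pairs that overlapped by size.

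From 20 calls per 10 kb upwards the share of close pairs rose with the local density of calls, and the number of calls also differed between the libraries. Arm calls numbered 256502 in Ler replicate 1, 230949 in Ler replicate 2, 275443 in top1a-2 replicate 1 and 257078 in top1a-2 replicate 2. In 10 kb windows with 20 to 24 calls, pairs were 0.407% and 0.388% of the distances in the Ler replicates and 0.950% and 0.582% in the top1a-2 replicates. In windows with 35 to 39 calls they were 3.04% and 3.62% in Ler and 3.48% and 3.42% in top1a-2. When each library was given the same mix of window densities, the shares were 1.14% and 1.54% in the Ler replicates and 1.71% and 1.499% in the top1a-2 replicates. The genotypes then overlapped, with top1a-2 replicate 2 below Ler replicate 2, and the ratio of the means was 1.197. Top1a-2 replicate 2 and Ler replicate 1 had nearly the same number of arm calls, with a ratio of 1.00, and their pairs had a ratio of 1.33. A pair also adds a call to its own window, so the density classes are not fully separate from the pairs, and the part of read depth in the difference was not tested, since the lists give no reads.

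**Figure D2:**
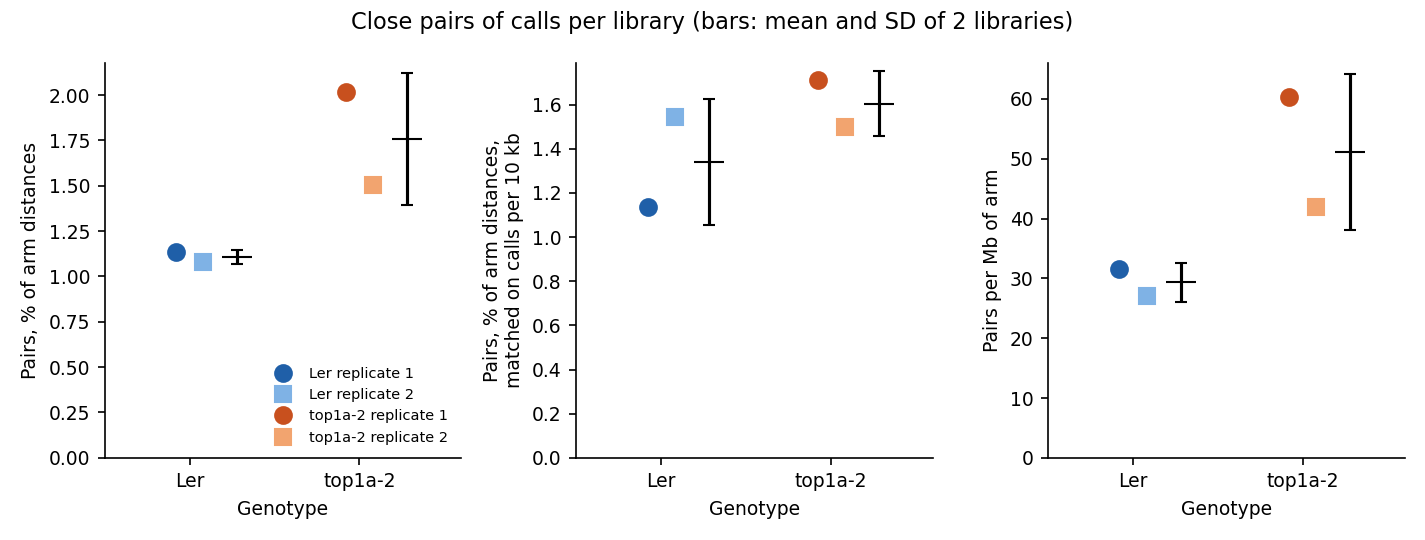
Close pairs per library as a share of arm distances (left), as the same share with the libraries weighted to equal densities of calls per 10 kb (middle) and per Mb of arm (right). Points are libraries and bars the mean and SD of 2. The genotypes are apart in the left and right panels and overlap in the middle one, where Ler replicate 2 stands at 1.54%.

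Members of close pairs were narrower in position than other arm calls of the same library. Mean fuzziness was 25.5 and 25.9 bp in members of the Ler replicates and 25.1 and 25.4 bp in members of the top1a-2 replicates. Other arm calls had 39.6 and 40.04 bp in the Ler replicates and 38.2 and 39.2 bp in the top1a-2 replicates. The difference was -13.8 bp ± 0.500 (SD over 4 libraries) and had the same sign in 4 of 4 libraries. The exact two-sided sign-flip permutation test gave p = 0.125, the smallest it can give with 4 libraries, and 0.25 after Benjamini-Hochberg adjustment over the 8 tests made here. Fuzziness and distance were not independent columns. No pair was closer than 0.948 times the summed fuzziness of its members, the lowest value in any library, and the first percentile of this quotient was 1.59 to 1.63 across the libraries. With the members of each pair ordered by width, the narrower had a median of 18 to 20 bp and the wider 32 bp in each library. Ordering makes such a gap by construction, and neighbouring calls outside pairs were not measured in this way.

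Between the genotypes the fuzziness of the members differed by a small amount, and the other arm calls, with the values above, were likewise narrower in each top1a-2 library than in either Ler library. The Ler libraries averaged 25.7 ± 0.268 bp and the top1a-2 libraries 25.3 ± 0.245 bp (SD, n = 2), and both top1a-2 libraries were below both Ler libraries (exact permutation p = 0.333, the smallest value for 2 against 2 libraries; adjusted 0.381). The nearest libraries were Ler replicate 1 and top1a-2 replicate 2, at 25.51 and 25.44 bp. The difference of -0.432 bp turned to 0.309 bp with equal numbers of highest-scoring calls and to 0.0404 bp with a distance limit of 120 bp. The narrower member had a median of 19 and 20 bp in the Ler replicates and 18 bp in both top1a-2 replicates, whereas the wider member stood at 32 bp in all 4.

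**Figure D3:**
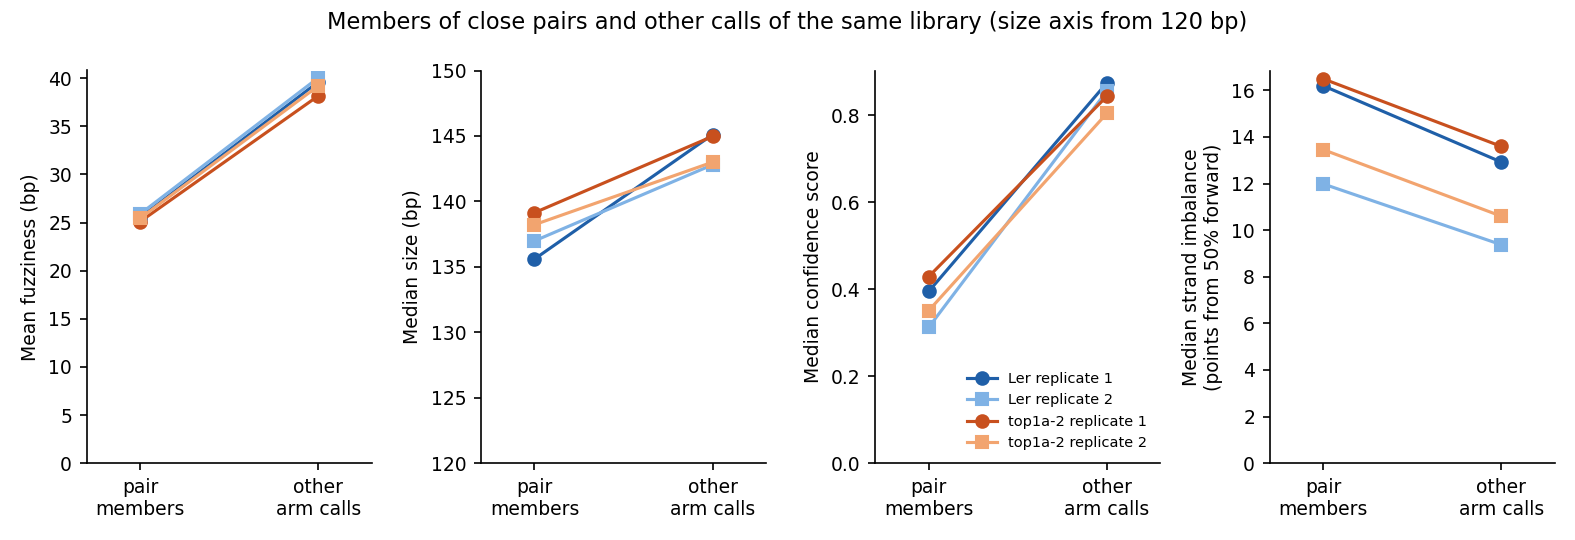
Mean fuzziness, median size, median confidence score and median strand imbalance of pair members and of all other arm calls, 1 line per library. The lines run the same way in all 4 libraries in each panel. The size axis starts at 120 bp and the other axes at 0.

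Members were also shorter calls. Their median size was 136 and 137 bp in the Ler replicates and 139.1 and 138 bp in the top1a-2 replicates, against 145.1, 142.8, 144.97 and 143.0 bp for the other arm calls in the same order. The difference within libraries was -6.49 bp ± 2.08 (SD over 4 libraries; exact sign-flip permutation p = 0.125, adjusted 0.25, lower in 4 of 4). Calls under 100 bp made up 12.7% and 8.72% of the members in the Ler replicates and 7.96% and 7.29% in the top1a-2 replicates, and 5.16%, 4.42%, 3.61% and 3.01% of the other calls in the same order. Members were 2.39 bp longer in top1a-2 than in Ler, and the libraries of the genotypes were apart (exact permutation p = 0.333, adjusted 0.381). The full set of other arm calls showed no such split, since its median size was higher in replicate 1 of each genotype. Calls just outside the limit did, at 137.99 and 137.15 bp in the Ler replicates and 139.95 and 138.81 bp in top1a-2. The longer size in top1a-2 was thus not particular to pairs under the limit. Short size was not either, since calls just inside the limit were close to those just outside it. The former had medians of 137.19 and 137.94 bp in the Ler replicates and 140.28 and 139.22 bp in top1a-2. Without calls under the lower score quartile of their list, the members of the genotypes overlapped in size. Their medians were then 136.93 and 131.92 bp in Ler and 139.24 and 136.69 bp in top1a-2.

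The median confidence score of members was 0.365 to 0.509 times that of other arm calls across the libraries. Members had a median score of 0.395 and 0.313 in the Ler replicates and 0.429 and 0.351 in the top1a-2 replicates, and other arm calls had 0.875, 0.856, 0.844 and 0.805. The difference was -0.473 ± 0.0541 (SD over 4 libraries; exact sign-flip permutation p = 0.125, adjusted 0.25, lower in 4 of 4). Scores below the lower quartile of all arm calls of the library were found in 78.1% and 82.7% of the members in Ler and 65.6% and 72.1% in top1a-2. Members above the arm median were rarer in Ler, at 5.10% and 2.89%, than in top1a-2, at 11.2% and 6.97%. Low scores were not particular to pairs under the limit. Calls just outside it had medians of 0.437 and 0.366 in the Ler replicates and 0.477 and 0.401 in the top1a-2 replicates. The median score of members did not separate the genotypes, with 0.354 ± 0.0584 for Ler against 0.390 ± 0.0553 for top1a-2 (SD, n = 2; exact permutation p = 0.667, adjusted 0.667), and it was lower in replicate 2 of each.

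The scores of both members were set against each other as the stronger over the weaker, a ratio that cannot fall below 1. It was not taken for neighbouring calls outside pairs, so it does not set close pairs apart. The stronger member scored 1.62 and 1.66 times the weaker one at the median in the Ler replicates, and 1.70 and 1.68 times in the top1a-2 replicates. Both top1a-2 values were above both Ler values (exact permutation p = 0.333, adjusted 0.381), and the difference of 0.0482 turned to -0.161 with equal numbers of highest-scoring calls. The wider member was the one with the higher score in 64.6% and 58.9% of the Ler pairs and in 65.8% and 63.1% of the top1a-2 pairs that had unequal fuzziness. The stronger member came first along the chromosome in 52.0%, 49.6%, 50.7% and 51.5% of the pairs, so neither side was favoured. Summed over both members, the median score of a pair was 0.795 and 0.643 in the Ler replicates and 0.882 and 0.721 in the top1a-2 replicates. The summed score of a pair thus lay below the median score of a single other call in 3 libraries and above it in top1a-2 replicate 1.

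The votes of the strands were fewer and less even in members. Forward and reverse votes together had a median of 0.0798 and 0.0681 in members of the Ler replicates against 0.185 and 0.225 in their other arm calls. In top1a-2 the medians were 0.0609 and 0.0528 against 0.123 and 0.140. The forward share of the votes lay a median of 16.2 and 11.99 points from equality in members of the Ler replicates and 16.5 and 13.5 points in those of the top1a-2 replicates. Other arm calls were at 12.9, 9.38, 13.6 and 10.6 points. The difference was 2.91 points ± 0.274 (SD over 4 libraries; exact sign-flip permutation p = 0.125, adjusted 0.25, higher in 4 of 4). Within the interquartile range of the members' votes, members stood at 15.2, 11.7, 16.2 and 12.7 points and other calls at 13.7, 10.3, 14.4 and 11.7 points.

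The forward share of the first member was higher in the libraries numbered 1 than in those numbered 2, in both genotypes. In the member that comes first along the chromosome the median forward share was 61.1% in Ler replicate 1 and 59.5% in top1a-2 replicate 1, but 52.7% and 54.8% in the replicates numbered 2. In the second member it was 53.7%, 51.8%, 54.0% and 53.1% in the same order. Other arm calls had a forward share of 50.3% to 50.5% in every library. Forward votes exceeded reverse votes in the first member of 70.4% of the pairs in Ler replicate 1, 67.4% in top1a-2 replicate 1, 55.6% in Ler replicate 2 and 59.7% in top1a-2 replicate 2. The labels say nothing that replicates of the same number share.

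Most pairs stood alone, in a local stretch of short distances. Pairs that shared no call with another pair made up 86.9% and 88.6% of the pairs in Ler and 88.5% and 87.9% in top1a-2. The remaining 13.1% and 11.4% in Ler and 11.5% and 12.1% in top1a-2 adjoined another pair. Among all arm distances, those under the limit were only 1.13% and 1.08% in Ler and 2.02% and 1.503% in top1a-2. A pair has a distance on either side, and the share of adjoining pairs to be expected from these values was not computed. Runs of 3 close calls numbered 184 and 134 in Ler and 305 and 227 in top1a-2, and runs of 4 or more numbered between 4 and 10 per library. The distance from a pair to the next call on either side had a median of 235 and 254 bp in the Ler replicates and 245 and 248.5 bp in the top1a-2 replicates, while all distances at or above the limit had a median of 340 and 375 bp in Ler and 315 and 338 bp in top1a-2. A flank shorter than 250 bp was found for 56.8%, 48.0%, 51.8% and 50.7% of flanks, against 18.7%, 14.5%, 25.6% and 20.1% of all distances at or above the limit.

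The stretch of DNA from the call before a pair to the call after it was also measured. From the call before a pair to the call after it the median span was 611 and 651 bp in the Ler replicates and 636 and 635 bp in the top1a-2 replicates. Spans of 2 successive distances, which hold a single call between their ends, had a median of 679, 750, 631 and 675 bp over all arm calls, and spans of 3 distances, which hold 2 calls, had 1020, 1127, 950 and 1016 bp. The rule fixed a short distance inside the pair, which shortens the span whatever the flanks are, so the spans are given as a description and the flank distances above carry the comparison.

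Close pairs hardly recurred between libraries, whether or not these had the same genotype. A pair of a library was counted as found in another when that library had a pair with both members within 20 bp. How often neighbouring calls outside pairs recurred in this way was not computed. Low recurrence is therefore not read as particular to close pairs. Of the pairs of Ler replicate 1, 1.82% were found in Ler replicate 2, 2.61% in top1a-2 replicate 1 and 2.13% in top1a-2 replicate 2. Of the pairs of top1a-2 replicate 1, 1.82% were found in top1a-2 replicate 2, 1.37% in Ler replicate 1 and 1.57% in Ler replicate 2. For pairs of each other library, the share found was highest in top1a-2 replicate 1, which held the most pairs. Over all ordered pairs of libraries the mean was 2.09% within and 2.17% between genotypes. The SD over the 6 library pairs was 0.245 points, but these reuse the same 4 libraries, so it is no error of a difference. The difference of within minus between genotypes was -0.0708 points and changed sign with several settings. Without calls under the lower score quartile of their list it was -1.54 points, from 1.16% within and 2.70% between genotypes, with 216 and 148 pairs left in the Ler replicates and 800 and 476 in the top1a-2 replicates. With positions shifted by 5 kb the shares were 0.0401% to 0.207%, so that recurrence was 7.75 to 53 times this level. The shifted shares rest on very few pairs, so these multiples are unsteady. The value of 53 is for pairs of Ler replicate 2 in Ler replicate 1, and the opposite direction gave 10.6. Counted as loci, the pairs fell into 14399 places, of which 14001 were seen in 1 library, 373 in 2, 23 in 3 and 2 in all 4.

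Where a library held a pair, another library most often held a single call. Between 20 bp before the first and 20 bp after the second member, the other library had exactly 1 call for 68.4% to 78.6% of the pairs across the 12 ordered comparisons, no call for 15.4% to 29.0% and 2 or more for 2.61% to 5.98%. At the same distance of 5 kb these shares were 42.5% to 51.2%, 48.5% to 57.3% and 0.181% to 0.482%. The mean share with 1 call was 73.9% within and 73.8% between genotypes. For the pairs of Ler replicate 1, it was 68.5% in Ler replicate 2, 75.5% in top1a-2 replicate 1 and 72.9% in top1a-2 replicate 2, and the libraries with fewer calls more often had none.

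**Figure D4:**
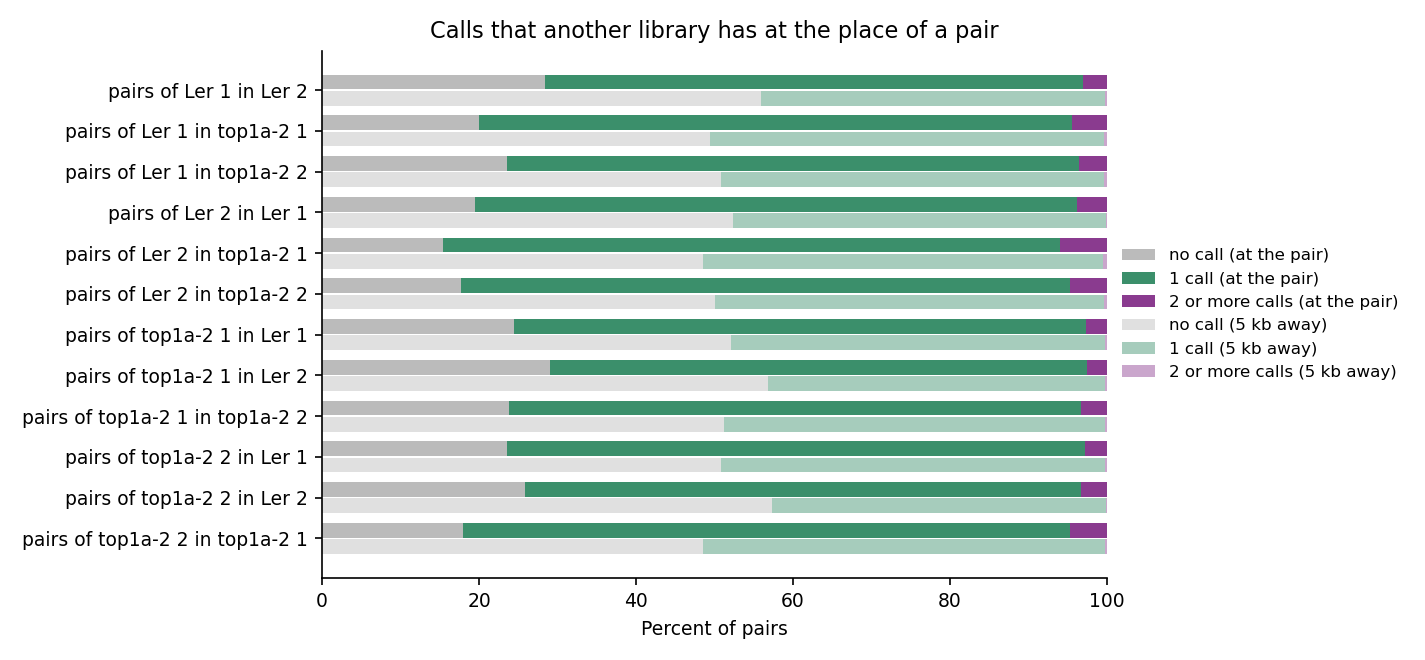
For the pairs of each library, the share for which another library had no call, 1 call or 2 or more calls between 20 bp before the first and 20 bp after the second member (solid bars), and the same at places shifted by 5 kb (pale bars). A single call is the most common outcome in all 12 comparisons, at 68.4% to 78.6%.

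The single calls that stood in place of pairs were closer in fuzziness and score to all arm calls than to pair members. Their mean fuzziness was 35.7 to 38.0 bp across the 12 comparisons, somewhat under the 37.7 to 39.7 bp of all arm calls of the same libraries and well above the 25.1 to 25.9 bp of pair members. Their median score was 0.657 to 0.849, against 0.788 to 0.863 for all arm calls, and their median size was 138 to 144 bp. They lay nearer the stronger member of the pair in 65.7% to 70.0% of cases, and nearer the member that comes first along the chromosome in 49.5% to 51.0%. These shares differed little between comparisons within and between genotypes, with means of 67.6% and 68.1% for the stronger member. Places with further calls were left out here, and pair members were only 2.10% to 3.92% of arm calls. The likeness of the single calls to all arm calls was therefore partly set by the selection.

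Only 2 pairs were found in all 4 libraries, and they differed in kind. Positions are those of the deposited lists, and the sources used here do not name their genome build. On chromosome 5 a pair lay at 15431213 and 15431341 in Ler replicate 1, 15431211 and 15431356 in Ler replicate 2, 15431205 and 15431340 in top1a-2 replicate 1, and 15431198 and 15431343 in top1a-2 replicate 2. Its distances were 128, 145, 135 and 145 bp. The second member scored higher in each library, at 0.853, 0.623, 0.997 and 0.966, against 0.353, 0.419, 0.333 and 0.326 for the first. The sizes of its calls ran from 124 to 157 bp.

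The other pair in all libraries, on chromosome 1, joined a strong call to a very short one. Its first member lay at 8744544 and 8744540 in the Ler replicates and at 8744539 and 8744542 in the top1a-2 replicates, with scores of 1.97, 1.95, 2.43 and 1.65. The second member, 133 to 146 bp downstream, scored 0.361, 0.412, 0.447 and 0.269. Its size was 46.8 and 24.7 bp in the Ler replicates and 30.7 and 2.00 bp in the top1a-2 replicates, far shorter than the DNA of a nucleosome. Forward votes made up 98.9%, 85.6%, 97.3% and 99.9985% of its votes, so this member rested almost wholly on 1 strand in every library but Ler replicate 2.

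Pairs that both libraries of a genotype shared were set against the other genotype. Both top1a-2 libraries shared 101 pairs, for 67 of which both Ler libraries had exactly 1 call, and 13 of which had a matching pair in at least 1 Ler library. Among all pairs of a top1a-2 library, 68.4% to 73.7% had exactly 1 call in a given Ler library and 1.37% to 1.79% had a matching pair there. Both Ler libraries shared 53 pairs, for 32 of which both top1a-2 libraries had exactly 1 call, and 11 of which had a matching pair in at least 1 top1a-2 library. Among all pairs of a Ler library, 72.9% to 78.6% had exactly 1 call in a given top1a-2 library and 2.13% to 3.49% had a matching pair there. These shares are for 1 library at a time, so they are not a like background for the counts. A share with 1 call in both libraries can only be equal or lower. A share matched in at least 1 library can only be equal or higher. Neither was computed over all pairs. The highest-scoring top1a-2 pair with exactly 1 call in both Ler libraries lay on chromosome 5. It stood at 364063 and 364199 in replicate 1 and at 364075 and 364215 in replicate 2. Its scores were 0.894 and 1.45 in replicate 1, and 0.963 and 1.23 in replicate 2. The Ler libraries had a single call there, at 364127 with a score of 2.53 in replicate 1 and at 364203 with a score of 2.38 in replicate 2. The former lay between the members and the latter on the second member, so the Ler libraries placed their calls differently.

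A second such pair lay on chromosome 3, at 16559083 and 16559221 in top1a-2 replicate 1 and at 16559082 and 16559221 in replicate 2. Its scores were 0.793 and 0.728, and 1.00 and 0.987. Ler had single calls at 16559134 and 16559093 with fuzziness of 45 and 37 bp, wider than the 30 and 14 bp, and 35 and 18 bp, of the top1a-2 calls. The third lay on chromosome 4, at 8318736 and 8318872 in top1a-2 replicate 1 and at 8318735 and 8318860 in replicate 2. Here Ler replicate 1 had a single call at 8318738, on the first member, and Ler replicate 2 a wider one at 8318774. In both top1a-2 libraries forward votes dominated the first member, at 68.6% and 69.7%, and reverse votes the second, with forward shares of 18.1% and 21.1%.

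Pairs of Ler that were single calls in top1a-2 were named by the same rule. The highest-scoring lay on chromosome 1 at 8747515 and 8747651 in Ler replicate 1 and at 8747514 and 8747651 in replicate 2, and top1a-2 had calls of 42 and 50 bp fuzziness at 8747638 and 8747611. On chromosome 5 a pair lay at 5249991 and 5250113 in Ler replicate 1 and at 5249991 and 5250103 in replicate 2, with scores of 0.744 and 0.697, and 0.536 and 0.444. There both top1a-2 libraries had a single call between the members, at 5250041 and 5250042, with a size of 169 and 162 bp and a score of 1.62 and 1.16. The third lay on chromosome 3 at 3944453 and 3944593 in Ler replicate 1 and at 3944450 and 3944596 in replicate 2, with top1a-2 calls at 3944566 and 3944513. In all 6 of these places the single call had a higher score than either member in the libraries with the pair. The share of all pairs for which this held was not computed, so it is not read as particular to these places. Over all pairs that met a single call, the median score of that call was 0.657 to 0.849. The stronger member of all pairs had medians of 0.406 to 0.566.

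Along the chromosomes close pairs were more frequent near the pericentromeres. From 2.5 to 5 Mb from the midpoints they made up 1.39% and 1.38% of distances in the Ler replicates and 2.25% and 1.87% in the top1a-2 replicates. Beyond 12 Mb they made up 0.948% and 0.878% in Ler and 1.85% and 1.31% in top1a-2. Within the pericentromeres, which are rich in transposons and heterochromatin, the share was 1.89% and 1.96% in Ler and 2.42% and 2.12% in top1a-2, above the arms of the same library in all 4. Members under 100 bp were also more common there, at 20.9% and 18.7% in Ler and 13.7% and 14.7% in top1a-2.

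The higher share of pairs in top1a-2 was spread over the arms. On each of the 10 arm stretches both top1a-2 libraries had a larger share of close pairs than both Ler libraries, with ratios of the means from 1.51 to 1.74. The short stretches before the midpoints of chromosomes 2 and 4 had the highest shares. On chromosome 2 they were 2.10% and 1.505% in Ler and 3.15% and 2.39% in top1a-2, and on chromosome 4 they were 1.47% and 1.34% in Ler and 2.94% and 1.84% in top1a-2. On the other 8 stretches the share was 0.830% to 1.29% in Ler and 1.32% to 2.26% in top1a-2.

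**Figure D5:**
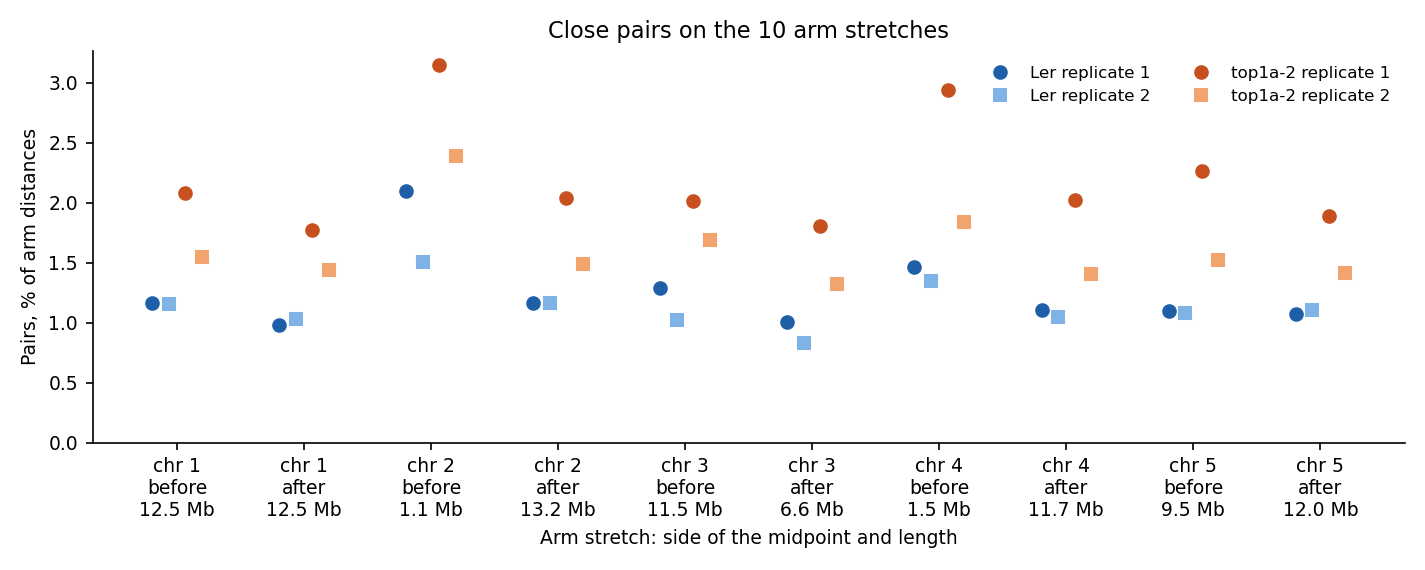
Close pairs as a share of arm distances on the 10 arm stretches, named by chromosome, side of the midpoint and length in Mb. Points are libraries. Both top1a-2 points lie above both Ler points on each stretch, and the short stretches of chromosomes 2 and 4 stand highest.

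In windows of 500 kb, 125 of 182 windows (68.7%) had more pairs in each top1a-2 library than in either Ler library, and none (0%) had fewer. All arm calls, paired or not, were more numerous in both top1a-2 libraries in 101 windows (55.5%) and less numerous in none, so the share for pairs stood above a background that was itself high. After division by the library mean, 31 windows (17%) had more pairs in both top1a-2 libraries and 30 (16.5%) had fewer. The division gives every library the same mean, which makes higher and lower windows balance by construction, so no shift along the arms is read from these counts. A window held a median of 15 and 13 pairs in Ler and 30 and 20 in top1a-2, with extremes of 2 and 57, and counting error is therefore large in single windows. Clusters were small, with at most 6 pairs in any 10 kb. Another pair lay within 1 kb of 23.2% and 24.4% of the pairs in Ler and 24.9% and 24.8% of those in top1a-2. Pairs of the same run count here. No background was computed for these shares, and it would rise with the number of pairs, so the genotypes are not compared by them.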

How the data were processed

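Nuclei of inflorescences were digested with micrococcal nuclease and DNA from a gel band of about nucleosome length was sequenced, per the labels' protocols. The authors deposited 1 list of calls per library. Per the file headers it gives position, fuzziness and size, all taken to be in bp, votes of each strand, and a score of confidence. The deposited scores and votes are on the caller's own scale, not given in the sources used here, and neither are the caller, aligner and build. Each chromosome's last call fell 356 to 439 kb short of where the genes of the assembly TAIR10.1 end, so no genes were assigned. Read depth is unknown, so no counting interval can be given.

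Calls were sorted by position, and neighbours on the same side of a midpoint were paired. Members and lists were chosen with earlier results of these data known. Density matching used 7 classes of calls per 10 kb, of width 5 except for the lowest and the highest, which were open-ended. Each class was weighted by its mean share of distances over the 4 libraries. Genotypes were compared by exact permutation, two-sided, over 6 label assignments, and members with other arm calls with exact sign flips over 4 libraries. Named pairs were the highest by minimum score, up to 5 found in all libraries and 3 per genotype where the other genotype had exactly 1 call. Results were recomputed with other settings of score, size, arm margin, distance limit, runs, matching and left-out libraries. Pairing and matching were tested on simulated data. Python 3.11.15, numpy 2.4.6 and pandas 2.3.3 were used.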

Additional observations from a re-analysis of the deposited data

How the results depend on the processing

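Of 149 alternatives, 128 kept the direction and, where no test was run, stayed within the spread of the replicates (for sharing, the SD over library pairs). All tests here are too small to pass 0.05, so only directions were compared, and leaving out a library cannot turn the direction where genotypes do not overlap. The differences between members and other arm calls kept their direction under each of the 11 alternatives run for them. Those alternatives that left out a library could not turn it, because the sign was the same in all 4 libraries. With calls under their list's lower score quartile left out, pairs numbered 216 and 148 in Ler and 800 and 476 in top1a-2, and the ratios of pair share, pairs per Mb and density-matched share rose to 3.24, 3.51 and 2.65, while sharing within genotypes was 1.54 points lower than between them (-1.54). When each library kept its 230949 best-scoring arm calls, these 3 ratios turned to 0.878, 0.878 and 0.908 and sharing to 0.240 points. Under it, the pair distance turned to 0.5 bp, fuzziness to 0.309 bp and the score ratio to -0.161. That number is the whole arm list of Ler replicate 2, which alone was not trimmed and kept a share of 1.08%, against 0.352% in Ler replicate 1 and 0.641% and 0.615% in top1a-2. The median pair distance (-0.5 bp) also turned to 0.5 bp with calls of 50 to 250 bp and to 0.25 bp with a limit of 120 bp, and fuzziness to 0.0404 bp with that limit. Sharing turned to 0.0523 points with arms over 4 Mb from the midpoints, 0.00643 for isolated pairs and 0.0306 with matching within 10 bp. The cause of these other reversals was not tested. Leaving out 1 library at a time gave ratios of pair share from 1.36 (without top1a-2 replicate 1) to 1.82, of pairs per Mb from 1.43 to 2.06, and score differences of members from -0.00501 to 0.0776, the latter negative without Ler replicate 2 and, at -0.00285, without top1a-2 replicate 1. With the replicate number as a block the ratio of pair share was 1.57 and no direction changed. For results given as differences the block returns the same value by arithmetic, so their direction could not change. Nor could that of ratios where genotypes do not overlap. The labels tie same-numbered libraries by nothing else, and their deviations over 182 windows correlated with r = 0.0589 for pairs and 0.237 for calls. Since read depth is unknown, its share in these values cannot be given.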

Other observations

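The highest-scoring Ler pair that was a single call in both top1a-2 libraries lay on chromosome 1, with its first member 2971 bp from that of the chromosome 1 pair found in all 4 libraries, a closeness noticed after the values were seen. Its second member also rested mostly on forward votes, at 93.0% and 91.4% in the Ler replicates, with sizes of 112 and 102 bp. The single calls of top1a-2 in its place had forward shares of 87.1% and 81.7% and sizes of 103 and 100.5 bp. Of the 2 pairs in all libraries, the one on chromosome 5 had a fuzziness of 40, 27, 20 and 42 bp in its first member in Ler replicates 1 and 2 and top1a-2 replicates 1 and 2, and of 27, 33, 37 and 33 bp in its second.

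The sizes of both members of a pair were weakly related across pairs, with Pearson's r of 0.197 and 0.0932 in the Ler replicates and 0.162 and 0.127 in the top1a-2 replicates, pairs of a library not being independent replicates. The number of pairs and the number of calls per 500 kb window had r between 0.139 and 0.300 across the 182 windows of a library. Pairs per window had r between 0.265 and 0.425 across libraries, and the value for the Ler pair of libraries was 0.392 and for the top1a-2 pair 0.316. Pairs whose stronger member scored at least 3 times the weaker made up 18.0% and 18.3% in Ler and 21.4% and 20.0% in top1a-2.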
